A study of Venturia canescens with 18 samples.

Results

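The loci described here were those whose head transcript level in female Venturia canescens stood apart after courtship by an unrelated male, while 2 of the 3 pools courted by a brother stayed near the isolated level. Of 16752 loci in the table, 71 were higher and 16 were lower by this rule, and they are called the higher set and the lower set. For each locus, counts of the 2 technical replicates of a pool were summed and scaled to the pool's total (CPM). Members were chosen by these CPM values, so their levels below are a description of the choice. A locus was taken when its mean over the 3 isolated pools was at least 5 CPM and the mean of brother pools 2 and 3 lay between 0.9 and 1.1 times that mean. In addition, each of the 3 unrelated pools had to lie beyond the extreme of the 5 reference pools, which are the isolated pools with brother pools 2 and 3, by a factor of over 1.1. Brother pool 1 took no part in the choice. Of the 8268 loci with at least 5 CPM, 3870 had brother pools 2 and 3 inside the band, and the higher and lower sets made up 0.859% and 0.194% of the 8268.

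The wasps were newly emerged virgin females descended from wild insects and kept on the flour moth Ephestia kuehniella. Each female spent up to 10 min in a box with an unrelated male (compatible), a brother (incompatible) or no male (isolated control). Heads were pooled, 10 per condition by the protocols, which do not state if this holds for each pool, nor if pools came from separate families or days. Each group had 3 pools, sequenced as 18 polyadenylated RNA libraries of 22079293 to 67940613 counts, or 62341897 to 103527471 counts per pool.

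Venturia canescens is a parasitoid wasp in which unfertilised eggs give haploid males and fertilised eggs normally give diploid females. Sex depends on whether an egg carries different alleles of a sex-determining locus, so a mating between sibs can yield diploid sons that are sterile. Females are courted before they accept a mate, and the study's title places them among animals that recognise and avoid kin. A head holds brain, eyes, antennae, muscle, glands and fat tissue together, so in whole heads fewer cells of a type and less RNA per cell cannot be told apart. The table names loci by identifiers that no annotation used here pairs with a gene, so no function is given for any of them.

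The label of these loci, a change after unrelated male courtship alone, was not borne out by brother pool 1. In that pool 68 of the 71 loci of the higher set lay above all 5 reference pools, 2 lay within them and 1 lay below. Over all 8268 loci of at least 5 CPM, brother pool 1 lay above the 5 reference pools at 40.2%, and over the 3870 inside the band at 48.4%. Its first technical replicate alone lay above them at 68 of the 71 loci (39.4% of the 8268) and its second at 67 (40.2%). Both come from the same pool, so they are not separate observations. Of the 16 loci of the lower set, 14 lay below the 5 reference pools in brother pool 1, 1 lay within them and 1 lay above, where 22.1% of the 8268 lay below. Both sets therefore lay in the direction of the unrelated pools in this pool, an observation on 1 pool with no replicate. Brother pool 1 also stands apart across the transcriptome. The common biological coefficient of variation estimated by edgeR was 26.3% with this pool and 13.7% without it. What sets this pool apart was not tested.

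**Figure D1:**
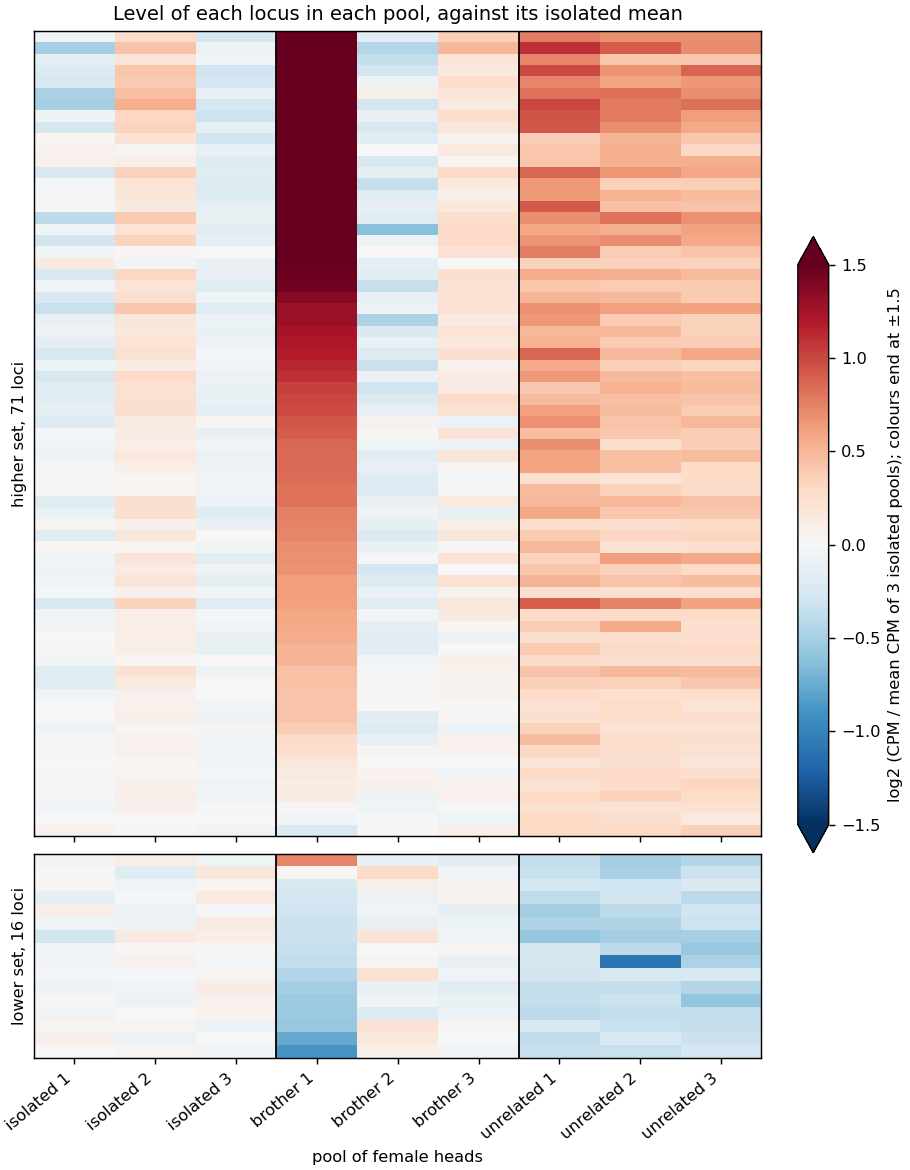
Each row is 1 locus and each column 1 pool of female heads; colour gives the log2 ratio of the pool's CPM to the locus's mean over the 3 isolated pools, and rows are ordered by brother pool 1. The unrelated pools are red across the 71 loci of the higher set and blue across the 16 of the lower set, and brother pool 1 has the same colour at most rows.

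The higher set was modest in size of difference and spread over a wide range of levels. The ratio of the unrelated mean to the isolated mean ran from 1.15 to 1.89 with a median of 1.37, and the rule required ratios of this kind. It was under 1.3 at 26 loci, between 1.3 and 1.5 at 30 and between 1.5 and 2 at 15. Isolated means ran from 5.16 to 626 CPM, with a median of 17.1 CPM, against a median of 41.0 CPM over all 8268 loci. At the 20 loci under 10 CPM the median ratio was 1.44, and at the 7 loci above 100 CPM it was 1.20. The lowest count of any member of the higher set in any pool was 245.

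Summed over the 71 loci, the higher set came to 4841, 5247 and 4706 CPM in isolated pools 1 to 3. It came to 4710 and 5169 CPM in brother pools 2 and 3. In unrelated pools 1 to 3 it came to 6440, 6123 and 6121 CPM. The unrelated pools therefore lay above the 5 reference pools, as the rule required, and brother pool 1 lay above all of them at 7873 CPM.

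XLOC_013295 was the member whose unrelated pools stood furthest from the reference pools, by a factor of 1.26. It stood at 12.3, 15.6 and 10.7 CPM in isolated pools 1 to 3, at 11.5 and 16.5 CPM in brother pools 2 and 3, and at 21.8, 20.9 and 20.8 CPM in unrelated pools 1 to 3. Brother pool 1 held it at 75.9 CPM. The unrelated pools were close to each other (21.2 ± 0.550 CPM, SD, n = 3), the isolated pools more spread (12.8 ± 2.49 CPM, SD, n = 3), and the brother group spanned both, with its pool 1 the highest of all 9. The edgeR log2 fold change of unrelated over isolated was 0.70 ± 0.55 (SE) in the fit of all 9 pools.

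XLOC_013439 was the most abundant member of the higher set. Its level was 618, 654 and 607 CPM in the isolated pools, 646 and 650 CPM in brother pools 2 and 3, and 778, 740 and 731 CPM in the unrelated pools. The unrelated mean of 750 ± 25.1 CPM was 1.20 times the isolated mean of 626 ± 24.4 CPM (SD, n = 3 each), and the edgeR log2 fold change was 0.23 ± 0.058 (SE). Brother pool 1 held 747 CPM, inside the range of the unrelated pools.

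Only 4 loci of the higher set had all 3 unrelated pools more than 1.1 times above all 6 other pools, brother pool 1 included, and no other locus of the 8268 did (0.0484%). They are XLOC_003350, XLOC_000621, XLOC_016465 and XLOC_013277, named after their values were seen. XLOC_003350 is abundant, at 635, 598 and 585 CPM in the isolated pools, 520, 613 and 649 CPM in brother pools 1 to 3, and 737, 746 and 779 CPM in the unrelated pools. It was the 1 member of the higher set for which brother pool 1 lay below the 5 reference pools. XLOC_016465 lay between 75.0 and 82.5 CPM in the 5 reference pools, at 79.2 CPM in brother pool 1 and at 91.8, 90.8 and 91.6 CPM in the unrelated pools. XLOC_013277 lay between 32.0 and 33.6 CPM in the 5 reference pools, at 32.5 CPM in brother pool 1 and at 41.1, 39.5 and 36.9 CPM in the unrelated pools. At XLOC_003350 and XLOC_016465 the brother and isolated groups overlapped, at XLOC_013277 the brother pools lay just under the isolated ones, and at all 3 the unrelated pools stood clear of both. XLOC_000621 came close in brother pool 1, at 19.9 CPM, against 17.4 to 19.5 CPM in the 5 reference pools and 22.5, 23.3 and 22.3 CPM in the unrelated pools. Ratios at the 4 loci were small, from 1.17 to 1.24 times the isolated mean. With library sizes scaled by TMM or RLE, which correct for differences in composition, none of the 4 kept a margin of 1.1 over all 6 other pools.

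**Figure D2:**
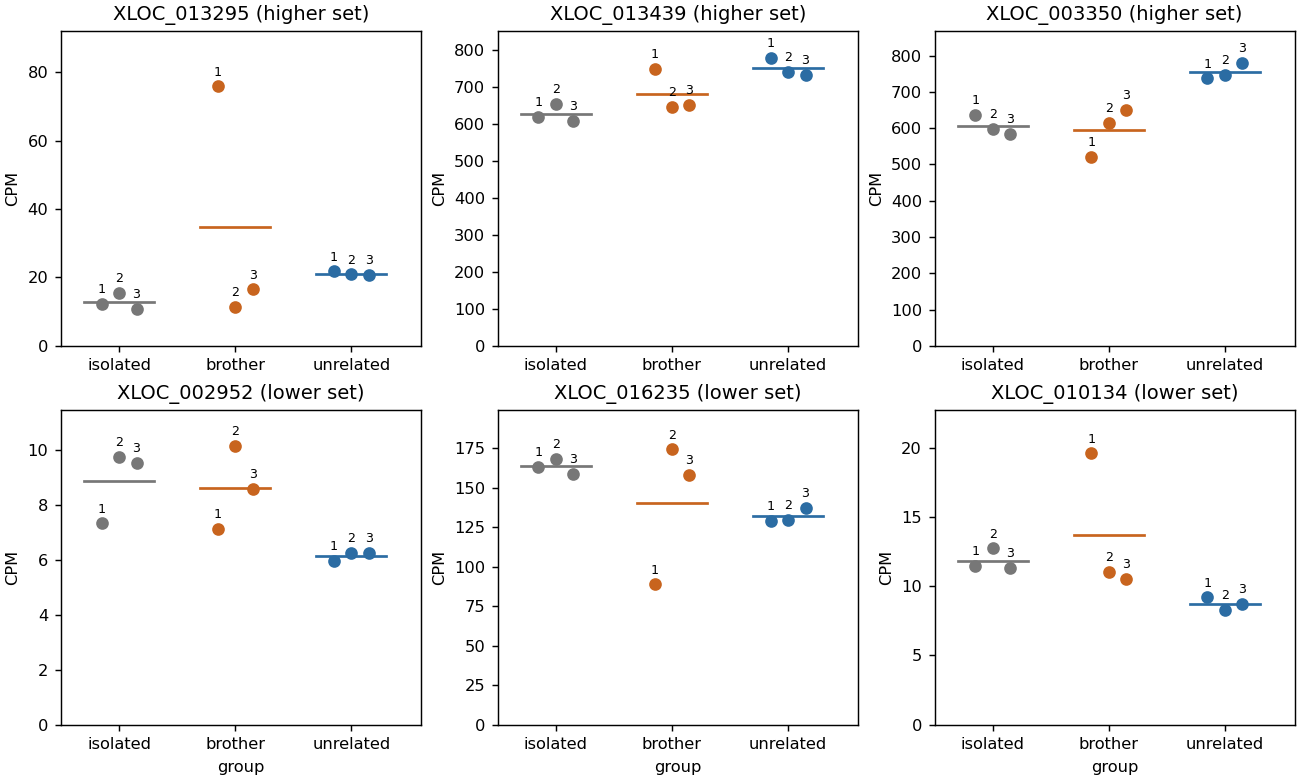
CPM of 6 loci in each pool, with numbers giving the pool within its group and lines the group mean of 3 pools. In XLOC_013295 brother pool 1 stands at 75.9 CPM, far above the unrelated pools, whereas in XLOC_003350 it stands at 520 CPM, below all others.

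In the higher set brother pool 1 stood at a median of 1.88 times the isolated mean, with a range of 0.858 to 5.91, against a median of 1.03 over the 8268 loci. It was over 2 times the isolated mean at 32 loci and over 3 times at 14, against 415 and 138 of the 8268, and it was above all 8 other pools at 59 loci (35.2% of the 8268). The log2 ratio of brother pool 1 to brother pools 2 and 3 had a Spearman correlation of 0.751 across the 71 loci with the log2 ratio of unrelated to isolated pools. The rule selected on the second ratio and tied brother pools 2 and 3 to the isolated level. Across 8266 loci of at least 5 CPM with counts in every pool this correlation was 0.302. With the log2 ratio of isolated pool 2 to isolated pools 1 and 3, brother pool 1 correlated at 0.607 in the higher set and 0.438 across the 8266 loci. The likeness of brother pool 1 was thus not confined to the unrelated pools. Loci share libraries and vary together, so these are descriptions of 9 pools. An example is XLOC_009819, named after its values were seen. It stood at 57.2, 88.7 and 54.2 CPM in isolated pools, 54.5 and 73.8 CPM in brother pools 2 and 3, and 133, 106 and 122 CPM in unrelated pools, while brother pool 1 held 350 CPM.

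**Figure D3:**
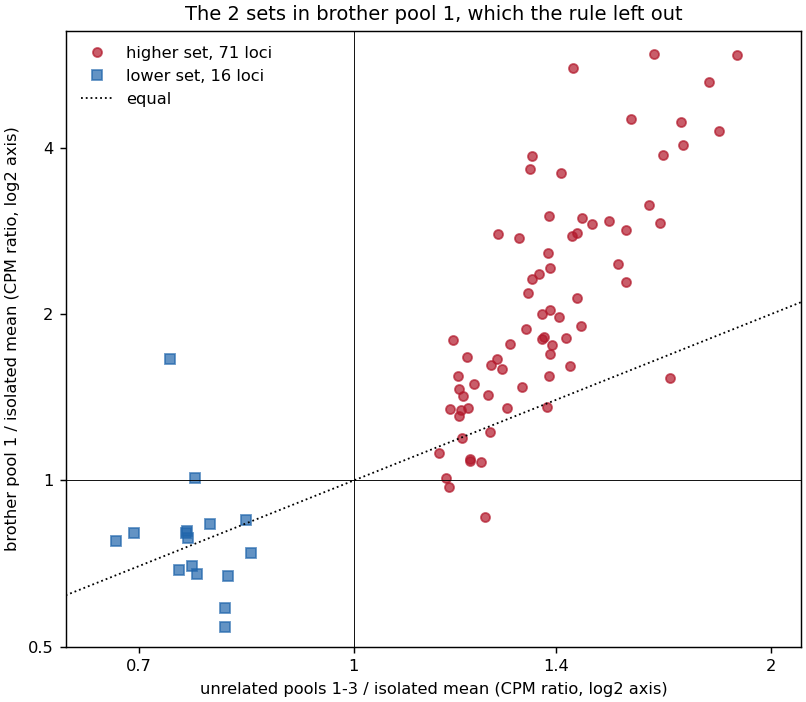
For each locus, the mean of the 3 unrelated pools (horizontal) and brother pool 1 (vertical) are given as ratios to the isolated mean, on log2 axes. Of the 71 loci of the higher set, 59 exceed all other pools in brother pool 1, with ratios up to 5.91. The axes share the isolated mean.

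At most loci of the higher set the same pool was the highest of its group, with brother pool 1 set aside. Among the isolated pools, pool 2 was the highest at 67 of 71 loci, against 49.4% of the 8268. Brother pool 3 was above brother pool 2 at 64 of 71, against 58.0%. Unrelated pool 1 was the highest unrelated pool at 48 of 71, against 33.6%. Isolated pool 2 and brother pool 3 were the top pair of the 5 reference pools at 52 of 71 loci, against 17.6%. The median level relative to the isolated mean was 0.953, 1.11 and 0.940 in isolated pools 1 to 3, 0.915 and 1.09 in brother pools 2 and 3, and 1.41, 1.34 and 1.31 in unrelated pools 1 to 3. Isolated pool 2 and brother pool 3 thus stood part of the way towards the unrelated pools. The median coefficient of variation among isolated pools was 10.9% in the higher set, against 6.02% over the 8268 loci. The rule used all these pools but not their order within a group.

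**Figure D4:**
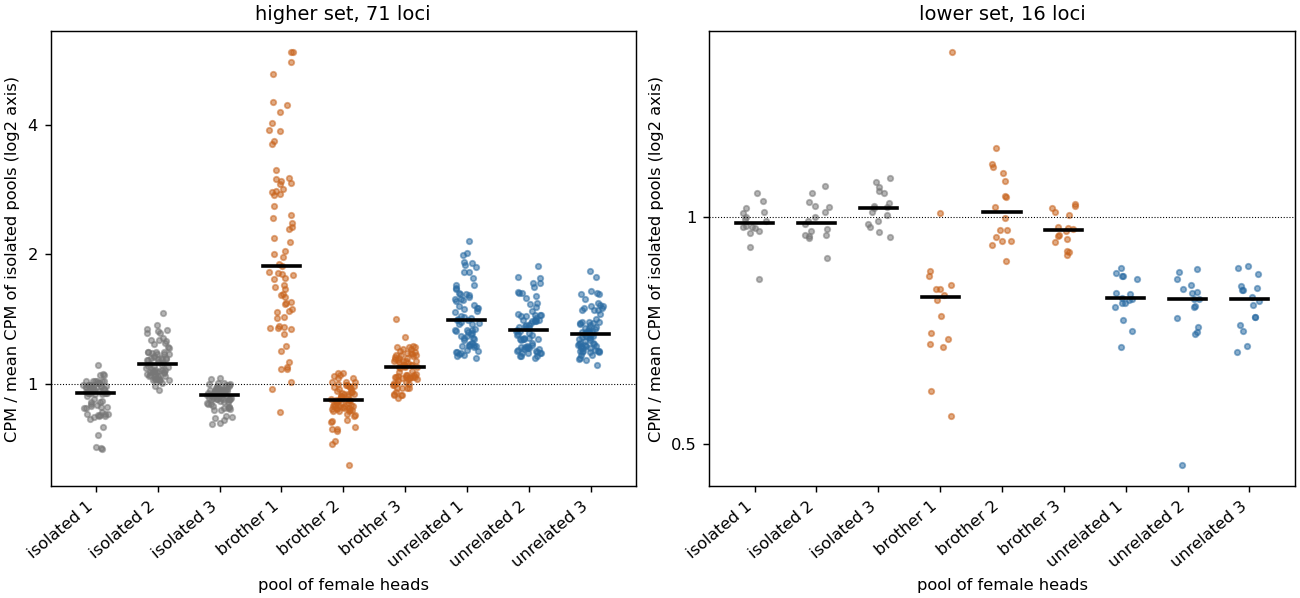
Each point is 1 locus in 1 pool, as a ratio to its isolated mean on a log2 axis, and black lines are medians over the loci of a set. In the higher set isolated pool 2 (median 1.11) and brother pool 3 (median 1.09) lie above the other reference pools, and brother pool 1 has a median of 1.88. In the lower set brother pool 1 has a median of 0.782, close to the unrelated pools.

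The lower set held 16 loci with isolated means of 5.06 to 163 CPM. Their unrelated means were 0.674 to 0.843 times the isolated means, with a median of 0.766. The isolated mean was less than 1.3 times the unrelated mean at 7 loci and 1.3 to 1.5 times at 9. The set summed to 560.2, 566 and 582 CPM in isolated pools 1 to 3, 595 and 553 CPM in brother pools 2 and 3, and 449, 449 and 459.9 CPM in unrelated pools 1 to 3. Brother pool 1 was the lowest at 414 CPM. The 3 unrelated pools were almost level, with medians of 0.779, 0.778 and 0.779 times the isolated mean, and brother pool 1 had a median of 0.782. Brother pool 1 was below all 8 other pools at 6 of 16 loci (19.2% of the 8268). The Spearman correlation between the ratios of brother pool 1 and of the unrelated pools, taken as in the higher set, was -0.447 across the 16 loci.

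XLOC_002952 had the widest margin of the lower set, a factor of 1.17. It stood at 7.31, 9.73 and 9.52 CPM in isolated pools, at 10.1 and 8.56 CPM in brother pools 2 and 3, and at 5.94, 6.24 and 6.25 CPM in unrelated pools. The unrelated pools had a mean of 6.14 ± 0.175 CPM and the isolated pools 8.86 ± 1.34 CPM (SD, n = 3 each), and the edgeR log2 fold change was -0.55 ± 0.18 (SE). Brother pool 1 was the lowest of the courted-by-brother group at 7.11 CPM, between the unrelated pools and the reference pools.

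XLOC_016235 was the most abundant member of the lower set. It stood at 163, 168 and 159 CPM in isolated pools, at 174 and 158 CPM in brother pools 2 and 3, and at 129, 129 and 137 CPM in unrelated pools. The unrelated mean was 132 ± 4.54 CPM and the isolated mean 163 ± 4.88 CPM (SD, n = 3 each). Brother pool 1 held 88.8 CPM, the lowest of all 9 pools. The edgeR log2 fold change of unrelated over isolated was -0.34 ± 0.24 (SE).

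With brother pool 1 counted among the others, 3 loci of the lower set had all unrelated pools lower than the other 6 by the margin of 1.1, where 0.0605% of the 8268 did. They are XLOC_002952, XLOC_010134 and XLOC_014105, the last 2 named after their values were seen. XLOC_010134 was the exception in direction. It stood at 11.5, 12.7 and 11.3 CPM in isolated pools, at 19.6, 11.0 and 10.5 CPM in brother pools 1 to 3, and at 9.19, 8.27 and 8.71 CPM in unrelated pools. Brother pool 1 was therefore the highest pool and the unrelated pools the lowest. XLOC_014105 stood at 15.4 CPM in brother pool 1, inside the 13.4 to 18.8 CPM of the 5 reference pools, and at 12.1, 10.9 and 12.2 CPM in unrelated pools. With TMM or RLE scaling, XLOC_010134 alone kept the margin among the 16 loci. Of all 8268 loci, 3 were lower than the other 6 pools by this margin with TMM and 4 with RLE.

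The margin of 1.1 cut through a continuum in both directions. Just inside it, a locus of the higher set had its nearest unrelated pool at 36.9 CPM and its nearest reference pool at 33.6 CPM. Just outside it, a locus had 367 against 334 CPM. For the lower set the corresponding values were 15.1 against 16.7 CPM inside and 155 against 169 CPM outside. With no margin, 822 loci were higher and 110 lower.

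The 2 technical replicates of each pool have different run names in their titles. The rule used their sum, so the direction in each was nearly fixed. In the higher set, unrelated pools did not overlap the 5 reference pools at 69 loci in the first replicate (11.8% of the 8268 loci were higher without overlap) and at 70 in the second (10.4%). In the lower set this held for 11 of 16 loci in the first (1.42% lower without overlap) and 16 in the second (1.72%). The absolute difference in log2 ratio between the replicates had a median of 0.058 in the higher set and 0.086 in the lower set, with maxima of 0.295 and 0.459. This difference exceeded the log2 ratio of unrelated to isolated CPM itself at 0 of the 71 loci and at 1 of the 16. Applied to each replicate alone the rule selected 69 and 60 higher loci, of which 22 were shared, or 31.9% and 36.7% of the 2 lists. It selected 9 and 10 lower loci with 3 shared, or 33.3% and 30.0%.

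The scaling of library sizes affected which loci counted as unchanged in the brother pools. TMM factors were 0.923 and 0.942 for brother pools 2 and 3, against 0.983 to 1.03 for isolated and 1.01 to 1.02 for unrelated pools. With total counts, the median log2 ratio over the 8268 loci was 0.02 for unrelated over isolated pools and 0.11 for unrelated over brother pools 2 and 3. With TMM these medians were -0.001 and -0.01. Every member kept the direction the rule had fixed under TMM and RLE. After TMM, however, 26 of the 71 and 6 of the 16 loci had the mean of brother pools 2 and 3 above 1.1 times the isolated mean, which puts them outside the band. The rule then selected 31 higher and 22 lower loci, of which 22 and 10 were members. Brother pool 1 had the highest factor of all 9 pools, 1.08. With TMM it lay above the reference pools at 63 of the 71 loci, where 25.2% of the 8268 did, and below them at 14 of the 16, where 41.0% did.

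**Figure D5:**
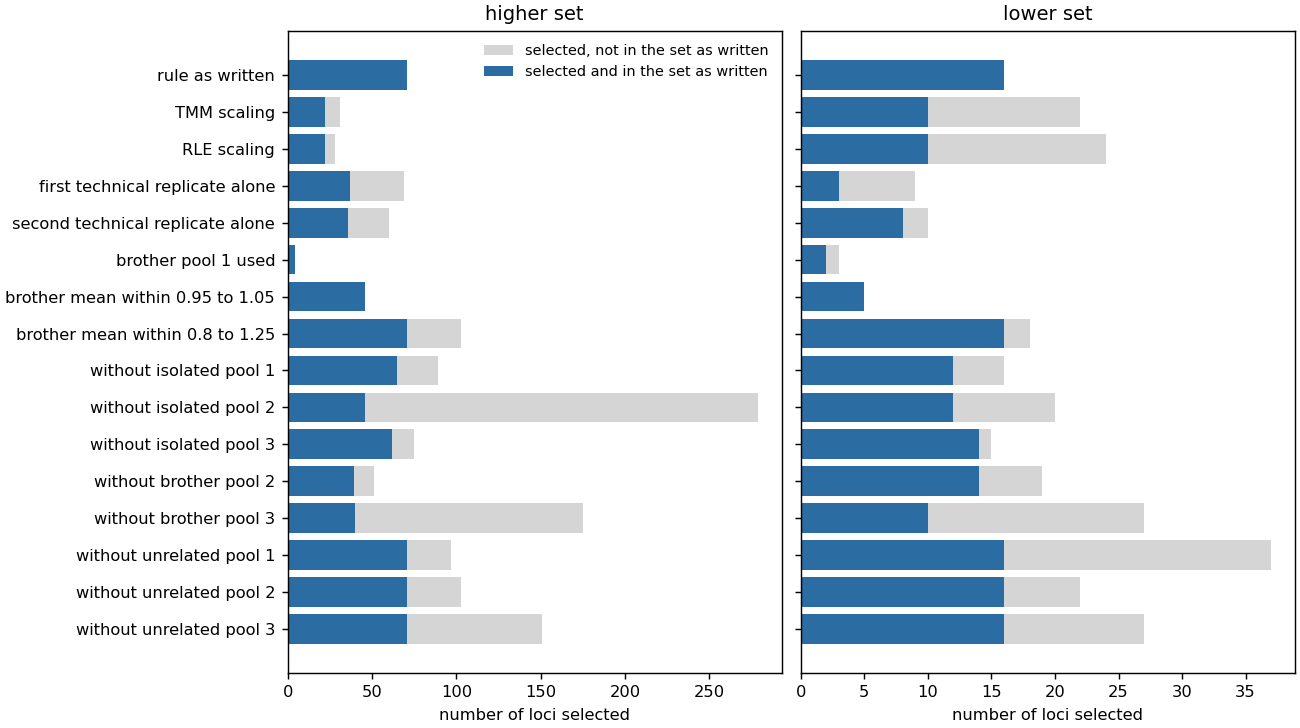
Bars give the number of loci the rule selects when 1 choice is altered, and the blue part those that are also in the set as written (71 higher, 16 lower). Using brother pool 1 gives 4 higher and 3 lower loci, of which 4 and 2 are in the set as written. Leaving out isolated pool 2 gives 279 higher loci.

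All 87 loci passed the filter of the test across all loci, edgeR's quasi-likelihood test with Benjamini-Hochberg adjustment over 15486 loci. The rule had used these contrasts, so the counts that follow describe the members and are no evidence for them. With all 9 pools in the fit, no locus of the table was called between unrelated and isolated pools (0%). At an unadjusted p under 0.05, 29 of the 71 loci were higher (5.2% of all loci tested) and 11 of the 16 were lower (5.64%). The median log2 fold change was 0.43 in the higher set and -0.41 in the lower set, against -0.01 over all loci tested. By DESeq2 on the 9 pools, 9 of the 71 were called higher (2.12%) and 2 of the 16 lower (2.45%). The DESeq2 shares are of 9280 loci in this comparison and of 16094 in the others below. Without brother pool 1, 42 of the 71 were called higher (2.82%) and 10 of the 16 lower (2.38%). With the 6 unrelated and isolated pools alone, 50 (3.57%) and 11 (3.31%) were called. Between unrelated and brother pools none of the 87 was called with all 9 pools (0.187% of loci tested were higher and 0.00646% lower). Unadjusted, 6 of the 71 were higher (3.53%) and 8 of the 16 lower (3.36%), and DESeq2 called none of the 71 higher (0.833%) and 1 of the 16 lower (0.354%). Without brother pool 1, 8 of the 71 were called higher (2.15%) and 13 of the 16 lower (2.49%). Between brother and isolated pools none of the 87 was called with all 9 pools, where 0.53% of loci tested were called higher and 1.65% lower. Unadjusted, 16 of the 71 were higher (11.3%) and none of the 16 was lower (11.2%), and DESeq2 called 1 of the 71 higher (5.54%) and none of the 16 lower (5.27%). The unrelated and brother comparisons share the isolated pools or the unrelated pools, so they are not separate observations.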

How the data were processed

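The authors deposited 1 table of raw counts, whole numbers for 16752 loci and 18 libraries, not normalised. Per the submitters' processing notes, the tools included Trimmomatic 0.36, TopHat, Cufflinks and HTSeq. Not given in the sources used here are the genome build, the annotation and how strand, near-identical copies or overlapping loci were counted; reads of such loci cannot be told apart. Columns were matched to samples by condition, replicate number and the letter of the second technical replicate; names without kin or non-kin were taken as isolated. None of the identifiers matched the RefSeq gene table (0 found).

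The 2 technical replicates were summed to 9 pools and scaled to CPM by total count. Members were chosen by the rule stated in the opening, with earlier results of these data known, and brother pool 1 was the only pool the rule left out. The test was edgeR 4.0.16 (R 4.3.3; filterByExpr, TMM, glmQLFit and glmQLFTest, 1 coefficient per group, Benjamini-Hochberg, threshold 0.05). It was checked on simulated counts whose changes were larger than those of any member, so recovery at the members' sizes was not tested. DESeq2 1.42.0, other scalings, filters, single technical replicates, a replicate block and leaving out each pool were alternatives. Standard errors were derived from the log2 fold change and its F statistic in the fit of all 9 pools. The spread estimated in that fit includes brother pool 1. Per direction, the member of largest margin and the most abundant were named; others were named after their values were seen. The p-values set the difference between group means against the spread between these pools, whose origin in separate families or days is not stated.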

Additional observations from a re-analysis of the deposited data

How the results depend on the processing

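The number of loci selected depended on each choice of the rule. From 71 higher and 16 lower, it went to 31 and 22 with TMM and to 28 and 24 with RLE. The first technical replicate alone gave 9 lower loci and the second 10. No margin gave 822 and 110, the stricter margin planned gave 1 and 0, the narrower brother band 46 and 5, and a minimum of 20 CPM gave 33 and 8. Using brother pool 1 gave 4 and 3, of which 4 and 2 were members. Leaving out single pools gave 51 to 279 higher and 15 to 37 lower loci. The number of higher loci was 279 without isolated pool 2, 175 without brother pool 3 and 151 without unrelated pool 3. Lower loci numbered 37 when unrelated pool 1 was left out, and 27 when brother pool 3 or unrelated pool 3 was. The wider band planned and a minimum of 1 CPM kept both counts within 1.5 times. Members whose unrelated pools lay beyond all 6 others by the margin of the rule numbered 4 higher and 3 lower with total counts. With TMM or RLE they numbered 0 higher and 1 lower. Of all 8268 loci, 0 were higher by this margin with either scaling, and 3 were lower with TMM and 4 with RLE. The number of members beyond the reference pools in brother pool 1, chosen as a result after seeing the data like the preceding count, stayed within 1.5 times under TMM, RLE and each technical replicate.

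Calls over all loci (edgeR, adjusted p under 0.05) were 0 for unrelated against isolated, 30 for unrelated against brother and 337 for brother against isolated. DESeq2 gave 424, 191 and 1739. Fitting only the groups compared gave 1047, 1 and 61. A replicate block on the labelled numbers gave 0, 3 and 39, and no member was called in any of the 3. The first technical replicate alone gave 15 for unrelated against brother and the second 198 for brother against isolated. Leaving out single pools gave 0 to 807, 1 to 720 and 3 to 2494, each maximum without brother pool 1. For unrelated against isolated, the 4 loci named by rule kept their direction under RLE and no scaling, DESeq2 and the block. They also kept it with the 6 pools alone and each pool left out. The rule had placed every unrelated pool beyond every isolated pool at these loci, so this direction was nearly fixed. Over the 8268 loci, deviations of pools with the same number correlated at -0.476 to 0.245. Those of brother and unrelated pools were all positive, at 0.245, 0.0943 and 0.179, while those with isolated pools had either sign, so the pairing was not used. The cause of these dependences was not tested.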
